A study of Homo sapiens with 18 samples.

Results

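The 40 genes described here encode the proteasome, its inducible subunits and activators, and the endoplasmic reticulum aminopeptidases ERAP1 and ERAP2. They were chosen by symbol: each row of the deposited count tables whose Ensembl identifier carries 1 of these 40 symbols in GENCODE 29, and all 40 were found among 57500 genes. RNA was sequenced from THP-1, a human monocytic leukaemia cell line, in 3 stable lines made by lentivirus: shNT expressed a hairpin with no target, shNR4A2 a hairpin against NR4A2 and shNR4A3 a hairpin against NR4A3, both orphan nuclear receptors. Each line was left without LPS (control) or given 2.5 µg/ml LPS for 2 hours, with 3 libraries in each of the 6 groups and 16171161 to 23929138 counted reads or fragments in a library. The 40 genes took between 0.450% and 0.493% of the counts in a library.

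The transcripts named in the labels were lower in their own lines. NR4A2 was at -1.52 on the log2 scale in shNR4A2 against shNT cells with LPS (SE 0.192, adjusted p = 0.00265 by edgeR's quasi-likelihood test with Benjamini-Hochberg adjustment), and NR4A3 at -0.82 in shNR4A3 against shNT cells with LPS (SE 0.0799, adjusted p = 0.000556 by the same test). Without LPS both transcripts were low. NR4A2 had 94, 54 and 85 counts in shNT and 47, 34 and 58 in shNR4A2 libraries (-0.91, edgeR adjusted p = 0.0359), and NR4A3 had 20, 21 and 17 in shNT and 5, 3 and 1 in shNR4A3 (-2.47, edgeR adjusted p = 0.00767). With LPS NR4A2 was also at -0.36 in shNR4A3 against shNT, which passed with a term for the replicate number (edgeR adjusted p = 0.198 without and 0.00132 with it). LPS raised TNF and CCL20, cytokine genes that Toll-like receptor signalling induces, by 5.23 and 7.48 in shNT cells (edgeR adjusted p = 4.48e-12 and 2.83e-12), and IL6 went from 0 in all 3 control libraries to 1.07, 0.373 and 0.686 RPKM. How many hairpins or clones a line holds is not given in the sources used here, and the loss of a receptor cannot be told apart from another effect of its hairpin or line. All 9 monocytic markers were detected, with SPI1 the most abundant at a mean of 220.946 RPKM, and 8 of the 9 had a mean above 1 RPKM. Their summed level was higher in every library of both knockdown lines than in shNT of the same state. Without LPS it was 287, 266 and 242 RPKM in shNT, 459, 397 and 415 in shNR4A2 and 614, 450 and 511 in shNR4A3, and with LPS 377, 307 and 329, then 609, 465 and 520, then 736, 544 and 649. Of the 9, 3 without and 2 with LPS passed in shNR4A2 against shNT and 5 and 4 in shNR4A3, all higher, where 3.63%, 4.31%, 3.91% and 3.99% of all genes passed as higher. With a term for the replicate number 6, 5, 6 and 5 were higher (12.1%, 15.2%, 8.09% and 12.3% of all genes), and FCGR1A was lower in shNR4A3 with LPS (-0.19, edgeR adjusted p = 0.0404). LYZ, the lysozyme gene and the marker with the largest values, was at 1.68 and 1.76 in shNR4A2 and 2.25 and 2.29 in shNR4A3. Their part in the changes given for these lines was not tested. None of the 15 markers of T cells, B cells, epithelium, fibroblasts or erythroid cells reached that mean.

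The proteasome is the barrel-shaped protease that degrades ubiquitin-tagged proteins in the cytosol and nucleus. Outer rings of alpha subunits gate the barrel, inner rings of beta subunits hold the active sites of PSMB5, PSMB6 and PSMB7, and a cap with an ATPase base and a deubiquitinating lid recognises and unfolds substrates. Interferons and other inflammatory signals induce PSMB8, PSMB9 and PSMB10, which replace the standard catalytic subunits in the immunoproteasome, and PSME1 with PSME2, which form the activator PA28. The peptides that result can be carried into the endoplasmic reticulum, where ERAP1 and ERAP2 trim them to fit class I molecules.

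The subunits of the particle were transcribed at unequal levels per base of exon. In shNT control cells the highest mean was that of PSMA7, an alpha subunit, at 111 RPKM ± 4.95 (SD, n = 3), followed by PSMB4 of the beta ring at 101 ± 5.44 and PSMC3, an ATPase of the cap, at 78.8 ± 2.90. The 3 PSMA7 libraries lay above the 3 of PSMB4, while those of PSMC3 overlapped with the next gene, PSMB3 of the beta ring, at 76.5 ± 1.81. RPKM here is the count of a gene per length of merged exon and per library total, scaled by the TMM method of edgeR. Medians by role were 20.4 RPKM for the 7 alpha subunits, 64.1 for the 7 standard beta subunits, 26.6 for the 9 members of the base and 21.0 for the 8 members of the lid. The inducible subunits were present without LPS, with PSMB8 at 56.7 ± 5.65, PSMB10 at 41.4 ± 4.07 and PSMB9 at 6.83 ± 0.345. ERAP1 stood at 9.75 ± 0.280 and ERAP2 at 0.287 ± 0.00794, the lowest of the 40.

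**Figure D1:**
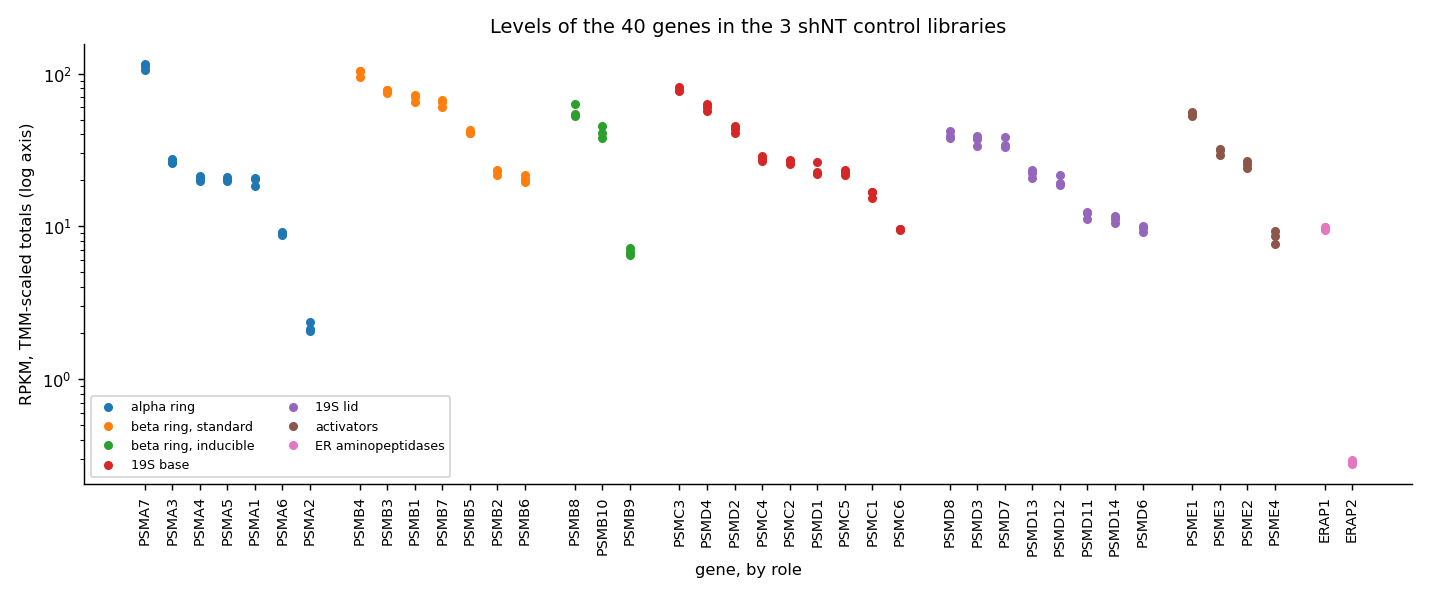
RPKM (log axis) of the 40 genes in the 3 shNT control libraries, 1 point a library, coloured by role and ordered by mean within a role. PSMA7 is highest at a mean of 111 and ERAP2 lowest at 0.287.

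Some of these levels are limited by how genes overlap in the annotation. In 4 genes over 50% of the coding bases also lie in exons of another gene on the same strand, namely PSMA2 (97.1%), PSMA1 (88.6%), PSMA6 (70.4%) and PSMB10 (58.3%), and reads there may have gone uncounted. RPKM also divides by all merged exons, which were 1.62 (PSMC3) to 8.68 times (PSMA4) as long as the coding bases. PSMA4, with 56689 counts over all libraries, stood at 20.7, 19.9 and 21.5 RPKM in shNT control libraries, and PSMB3, with 37020 counts and a ratio of 1.92, at 77.6, 77.5 and 74.4. Levels by role carry this difference in length. For the 4 genes that overlap others, their levels against those of other subunits are uncertain, while each gene's own fold changes use the same exons in every library. PSMB8 shares 425 exon bases with the antisense transcript PSMB8-AS1, which also shares 174 bases with PSMB9, and the strand setting of the counting is not given in the sources used here. For 11 of the genes there are 29 annotated pseudogenes, with counts of at most 1.79% of their parent's.

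In shNR4A2 cells a few named genes moved while no standard subunit of the proteasome passed the test against shNT. Without LPS, 3 of the 40 genes passed edgeR's test at an adjusted p under 0.05 (7.5%, where 6.45% of the 15800 genes tested did). ERAP1 and the activator PSME3 fell and the inducible subunit PSMB9 rose. In bulk RNA, a change in a share of the cells and a change in every cell cannot be told apart. With LPS, 4 of the 40 passed (10.0%, against 6.96% of 15590), which were the same 3 genes in the same directions and PSME2, which rose. Of the 31 standard subunits of the rings, base and lid 0 passed in either state in edgeR or DESeq2 (1 and 4 at an unadjusted p under 0.05 in edgeR, 3 and 8 with a term for the replicate number), with medians of 0.04 and 0.07 on the log2 scale beside -0.00103 and -0.00136 over all genes tested. With library totals alone the median of all 40 genes with LPS moved from 0.08 to 0.03 and that of all genes tested to -0.04. ERAP1 was the 1 gene of the 40 to change at least 2-fold, in a comparison where 2.18% of all genes without LPS and 2.49% with LPS did so.

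The 250 bases before the start of the genes with calls against shNT are shown because these are the stretches where promoter factors bind. They are RefSeq sequences of GRCh38.p14, where 35 of the 40 genes matched a start with 44 windows. Capitals mark any match, on either strand, to GAAANNGAA (like the interferon-stimulated response element), TTCNNNGAA (like the gamma-activated sequence GAS), GGANTTTCC (like an NF-kB site), AAAGGTCA (the NR4A monomer element NBRE) or TGACNNNGC (like the antioxidant response element). ERAP1, with 1 of its 2 windows shown, is at chr5:96807946-96808195 on the minus strand, PSME3 at chr17:42833147-42833396 on the plus strand, PSMB9 at chr6:32853942-32854191 on the plus strand and PSME2 at chr14:24146611-24146860 on the minus strand.
ERAP1: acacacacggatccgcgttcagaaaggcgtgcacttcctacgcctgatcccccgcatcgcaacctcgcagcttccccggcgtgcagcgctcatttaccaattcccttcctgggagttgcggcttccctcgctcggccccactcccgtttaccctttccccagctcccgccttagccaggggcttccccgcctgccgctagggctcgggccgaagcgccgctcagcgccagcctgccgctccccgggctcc
PSME3: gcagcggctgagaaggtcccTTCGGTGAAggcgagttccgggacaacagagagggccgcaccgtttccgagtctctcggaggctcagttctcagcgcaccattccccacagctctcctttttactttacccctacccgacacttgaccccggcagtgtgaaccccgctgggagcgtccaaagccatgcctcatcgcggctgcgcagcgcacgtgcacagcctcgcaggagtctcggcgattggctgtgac
PSMB9: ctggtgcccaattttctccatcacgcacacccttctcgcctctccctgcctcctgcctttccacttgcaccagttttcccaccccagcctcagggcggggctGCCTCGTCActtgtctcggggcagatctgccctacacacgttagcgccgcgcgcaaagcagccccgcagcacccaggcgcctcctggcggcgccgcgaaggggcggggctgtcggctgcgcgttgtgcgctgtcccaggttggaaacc
PSME2: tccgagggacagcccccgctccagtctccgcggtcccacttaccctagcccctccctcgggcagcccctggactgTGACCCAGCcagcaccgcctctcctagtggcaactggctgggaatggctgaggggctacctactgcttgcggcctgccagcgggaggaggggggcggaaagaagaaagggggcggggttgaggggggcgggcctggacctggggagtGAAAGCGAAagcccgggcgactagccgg
The ERAP1 window holds none of the 5 motifs. PSME3 has a GAS-like match at 230 bases before the start, PSMB9 an ARE-like match at 148, and PSME2 an ARE-like match at 175 and an ISRE-like match at 28. The letters of the NBRE occur in 0 of the 44 windows of the 40 genes and in 1.05% of 35116 windows of all genes. No 2 matches in these 4 windows overlap. The ISRE-like letters occur in 5 of the 44 (6.88% of all windows), in ERAP2, PSMA4, PSMB10, PSMB4 and PSME2. The GAS-like letters occur in 6 (6.57% of all), the NF-kB-like in 1 (1.45%) and the ARE-like in 9 (10.9%). With 44 windows each of these counts is small, and a match is a description of letters and not of binding.

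ERAP1 gave the widest separation. This aminopeptidase trims peptide precursors from their N-terminus inside the endoplasmic reticulum. Its level was 9.90, 9.43 and 9.92 RPKM in the shNT control libraries and 4.28, 3.55 and 4.38 in shNR4A2 control libraries. With LPS it was 9.61, 10.6 and 9.59 RPKM in shNT and 4.34, 4.63 and 4.61 in shNR4A2. In shNR4A3 it was 8.41, 10.5 and 10.2 RPKM without LPS and 11.01, 11.2 and 11.2 with LPS. All 6 shNR4A2 libraries therefore lay below all 12 others. The log2 fold change of shNR4A2 against shNT was -1.25 without LPS (SE 0.109, edgeR adjusted p = 9.51e-05) and -1.13 with LPS (SE 0.0899, edgeR adjusted p = 0.000262), and it passed without any single library. Against shNR4A3 the same line stood at -1.24 without LPS (SE 0.127, edgeR adjusted p = 0.000168) and -1.29 with LPS (SE 0.0830, edgeR adjusted p = 0.000219). In shNR4A3 against shNT, ERAP1 was at -0.01 (SE 0.0973, adjusted p = 0.962) and 0.16 (SE 0.0774, adjusted p = 0.243) and did not pass. ERAP1 lies on chromosome 5 at 96760810 to 96808100 of GRCh38, minus strand, and shares 299 of its 7945 exon bases with CAST on the other strand. CAST did not follow it, at 0.13 without LPS and 0.20 with LPS in shNR4A2 against shNT, and passed in neither. With a term for the replicate number it passed as higher with LPS (adjusted p = 0.0238 in edgeR).

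ERAP2, the neighbouring aminopeptidase that trims other precursors, was transcribed at a low level. Its counts ranged from 15 to 63 in a library and summed to 601 over all 18. In RPKM it was 0.285, 0.296 and 0.280 in shNT control libraries, and 0.239, 0.299 and 0.344 in shNR4A2 control libraries, so the groups overlapped. No knockdown comparison of ERAP2 passed in edgeR, with standard errors of 0.226 to 0.386 over its comparisons. With ERAP1 lower, ERAP2 made up 6.77% ± 1.31 (SD, n = 3) of the summed RPKM of the pair in shNR4A2 control cells, where it was 2.86% ± 0.157 in shNT.

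**Figure D2:**
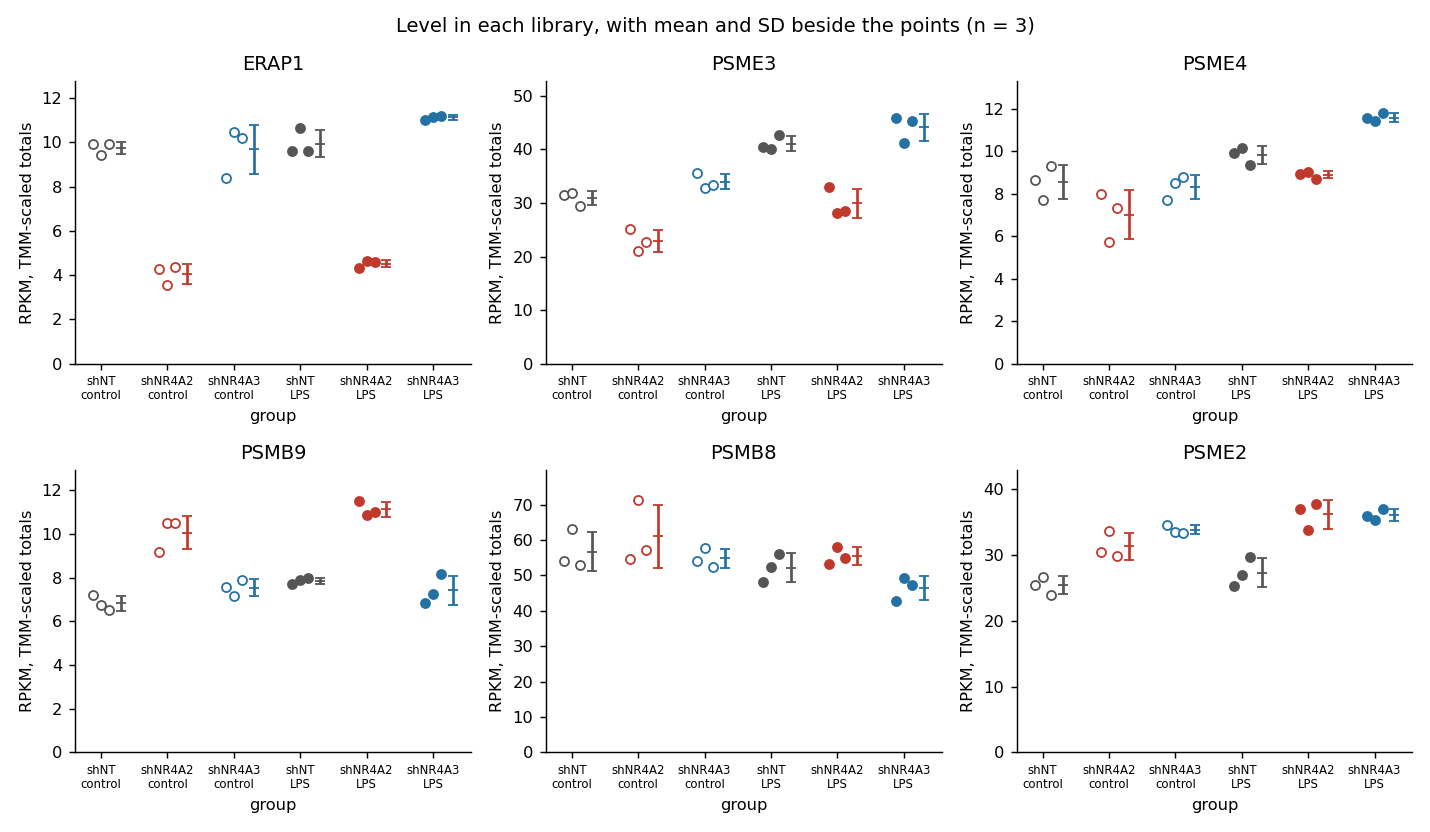
RPKM on TMM-scaled totals of 6 genes in all 18 libraries, open points without LPS and filled points with LPS, with the mean and SD of each group of 3 beside them. ERAP1 and PSME3 are lowest and PSMB9 highest in the shNR4A2 groups, while PSME2 is higher in both knockdown lines than in shNT.

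The 4 activators went in different directions. PSME3 encodes PA28 gamma, a nuclear activator that works without ubiquitin. It was at 31.5, 31.9 and 29.5 RPKM in shNT control libraries, 25.1, 21.0 and 22.7 in shNR4A2 and 35.6, 32.9 and 33.4 in shNR4A3. With LPS it was 40.5, 39.99 and 42.8 RPKM in shNT, 33.1, 28.1 and 28.5 in shNR4A2 and 45.9, 41.2 and 45.3 in shNR4A3. Within each state the shNR4A2 libraries lay below all the others. Against shNT the log2 fold change was -0.43 without LPS (SE 0.0965, edgeR adjusted p = 0.0222) and -0.45 with LPS (SE 0.0914, edgeR adjusted p = 0.0200). The direct comparison with shNR4A3 gave -0.56 in both states (SE 0.101 and 0.0942, edgeR adjusted p = 0.00847 and 0.0236), lost without the first shNR4A3 library in the first state and without any of 4 libraries in the second (2 of each line, with adjusted p up to 0.131). The call against shNT was lost on leaving out any of the 3 shNT libraries in either state, or the third shNR4A2 library, with adjusted p up to 0.0886. PSME3 shares 300 exon bases with its neighbour BECN1, which was at 0.02 and 0.07 in shNR4A2 against shNT and did not pass.

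PSME2, the beta chain of PA28, was higher in both knockdown lines. Its level was 25.5, 26.7 and 23.9 RPKM in shNT control libraries, 30.4, 33.5 and 29.8 in shNR4A2 and 34.6, 33.5 and 33.3 in shNR4A3. With LPS it was 25.3, 26.9 and 29.7 RPKM in shNT, 36.9, 33.7 and 37.7 in shNR4A2 and 35.9, 35.2 and 37.0 in shNR4A3. The shNT libraries did not overlap with those of either knockdown line in either state. In shNR4A3 the log2 fold change was 0.41 without LPS (SE 0.0836, edgeR adjusted p = 0.00901), a call kept without any single library, and 0.40 with LPS (SE 0.0824, edgeR adjusted p = 0.0196), a call lost without shNT 1 or 2 or shNR4A3 1 or 3, with adjusted p up to 0.0955. In shNR4A2 it was 0.41 with LPS (SE 0.0939, edgeR adjusted p = 0.0327) and 0.31 without (SE 0.0952, edgeR adjusted p = 0.0821), which did not pass. The call with LPS held on leaving out the second shNR4A2 library and was lost without each of the other 5 libraries (adjusted p up to 0.145). The knockdown comparisons share the shNT libraries, so the rise in both lines rests on the same reference. The difference in PSME2 between the knockdown lines was -0.10 without LPS (SE 0.0966) and 0.01 with LPS (SE 0.0823) and did not pass. PSME1, the alpha chain that partners PSME2, was at 55.2, 56.4 and 52.7 RPKM in shNT control libraries, 61.7, 68.0 and 58.4 in shNR4A2 and 66.2, 64.9 and 65.9 in shNR4A3. Its shNT libraries were the lowest here too. The log2 values were 0.20, 0.31, 0.26 and 0.22 in the same 4 comparisons (shNR4A2 without and with LPS, then shNR4A3) and passed in none, with adjusted p of 0.252, 0.0779, 0.0729 and 0.122 in edgeR. PSME1 passed as higher in shNR4A2 with LPS with all 18 libraries in 1 fit (edgeR adjusted p = 0.0204) and in shNR4A3 without LPS in DESeq2 (adjusted p = 0.0487), and PSME2 passed in shNR4A2 without LPS in the fit of all 18 (edgeR adjusted p = 0.0258).

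PSME4 encodes PA200, an activator that has been linked to acetylated histones. It did not pass in any line against shNT in edgeR without the replicate number. With a term for that number it passed as lower in shNR4A2 without LPS (-0.29, edgeR adjusted p = 0.0120) and as higher in shNR4A3 with LPS (0.24, edgeR adjusted p = 0.0126). With LPS it stood at 8.94, 9.01 and 8.71 RPKM in shNR4A2 and 11.5, 11.4 and 11.8 in shNR4A3, with shNT between them at 9.93, 10.2 and 9.37. With LPS, shNR4A2 against shNR4A3 gave -0.38 (SE 0.0762, edgeR adjusted p = 0.0433), a call that was lost on leaving out any of the 6 libraries (adjusted p up to 0.194), with library totals alone (0.0710) and with no filter on low counts. Without LPS the same comparison gave -0.24 (SE 0.126, edgeR adjusted p = 0.433).

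Of the 3 inducible catalytic subunits, PSMB9 was the 1 that passed in shNR4A2. PSMB9 replaces PSMB6 in the immunoproteasome. It was at 7.21, 6.77 and 6.52 RPKM in shNT control libraries and 9.17, 10.5 and 10.5 in shNR4A2. With LPS it was 7.70, 7.87 and 7.99 in shNT and 11.5, 10.8 and 11.02 in shNR4A2, so every shNR4A2 library exceeded every shNT library. The shNR4A3 libraries lay at 7.56, 7.14 and 7.91 RPKM without LPS and 6.83, 7.27 and 8.16 with LPS, overlapping those of shNT in both states. The log2 fold change in shNR4A2 was 0.56 without LPS (SE 0.114, edgeR adjusted p = 0.0133) and 0.51 with LPS (SE 0.0916, edgeR adjusted p = 0.0126). Without LPS the call was lost on leaving out shNT library 2 or 3, and with LPS on leaving out any shNT library (adjusted p up to 0.0706). Against shNR4A3 it was 0.59 with LPS (SE 0.103, edgeR adjusted p = 0.0285), a call lost without any of the 6 libraries (adjusted p up to 0.119), and 0.42 without LPS (SE 0.120, edgeR adjusted p = 0.0857, or 0.00912 with a term for the replicate number). PSMB8-AS1, which overlaps PSMB9 on the same strand, was at 0.45 without LPS and 0.28 with LPS in shNR4A2 and did not pass (edgeR adjusted p = 0.138 and 0.294). With a term for the replicate number it passed without LPS (adjusted p = 0.0166 in edgeR). The part of its reads in the PSMB9 values was not tested.

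PSMB8 and PSMB10, which replace PSMB5 and PSMB7, did not pass in any knockdown comparison, although PSMB10 did so as higher in shNR4A3 without LPS with a term for the replicate number (0.24, adjusted p = 0.0296 in edgeR). PSMB8 was at 54.1, 63.2 and 52.9 RPKM in shNT control libraries and 54.8, 71.2 and 57.1 in shNR4A2, and the groups overlapped. PSMB10 was at 40.7, 45.7 and 37.7 RPKM in shNT, 42.0, 54.2 and 39.5 in shNR4A2 and 47.6, 52.4 and 47.2 in shNR4A3 without LPS. With LPS PSMB8 was 0.26 higher in shNR4A2 than in shNR4A3, which passed with that term alone (adjusted p = 0.185 without and 0.00398 with it in edgeR). The second shNR4A2 control library was the highest of its group for both genes, and without it the values against shNT were -0.02 for each in place of 0.11 and 0.13. The standard subunits PSMB6 and PSMB7 overlapped between shNR4A2 and shNT without LPS. PSMB6 was at 19.5, 21.6 and 20.5 RPKM in shNT control libraries, 18.7, 21.8 and 19.2 in shNR4A2 and 23.8, 23.8 and 23.3 in shNR4A3, and PSMB7 at 67.2, 65.0 and 60.3 RPKM in shNT, 66.4, 61.9 and 54.8 in shNR4A2 and 65.4, 65.8 and 62.4 in shNR4A3. Neither passed in any knockdown comparison. Shares within each catalytic pair describe the same values, with no test. PSMB9 made up 33.6% ± 1.55 (SD, n = 3) of the summed RPKM of PSMB9 and PSMB6 in shNR4A2 control cells, 25.0% ± 1.73 in shNT and 24.2% ± 1.13 in shNR4A3. PSMB8 made up 57.7% ± 1.74 of its pair in shNT control cells, 61.2% ± 2.56 in shNR4A2 and 52.7% ± 0.589 in shNR4A3, and PSMB10 made up 39.2% ± 1.88, 42.4% ± 4.01 and 43.2% ± 1.11. These are shares of transcripts per length and say nothing of which subunits were built into particles.

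**Figure D3:**
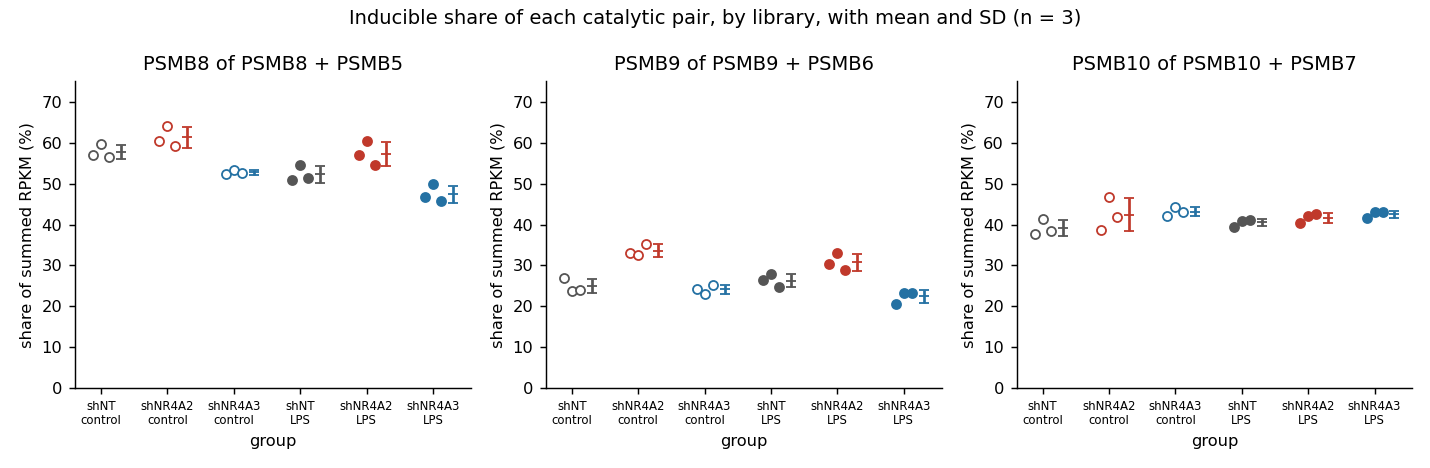
Share of the inducible subunit in the summed RPKM of each catalytic pair (%), by library and group, with mean and SD (n = 3). The PSMB9 share is highest in the shNR4A2 groups, with all 6 libraries between 28.9% and 35.4%, and the PSMB8 share is lower with LPS than without in the mean of each line.

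In shNR4A3 against shNT 1 of the 40 genes passed in each state, and it was PSME2 both times, without LPS (1 of 40, 2.50%, where 7.23% of 15322 genes did) and with LPS (1 of 40, where 6.45% of 15578 did). Most values were slightly above 0, with 32 of the 40 positive without LPS and 33 with LPS, and medians of 0.13 and 0.09 beside -0.00311 and -0.00853 over all genes tested. With library totals alone 30 and 25 were positive, with medians of 0.10 and 0.03 beside -0.03 and -0.06 over all genes. The 31 standard subunits ranged from -0.09 to 0.24 without LPS and from -0.13 to 0.25 with LPS, and 0 of them passed in edgeR or DESeq2 (6 and 2 at an unadjusted p under 0.05 in edgeR, 3 in each state with a term for the replicate number).

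A term for the replicate number, which pairs the libraries, raised the counts of the 40 genes and of all genes. With it, 9 of the 40 passed in shNR4A2 without LPS (23.6% of all genes did) and 13 with LPS (28.1%). In shNR4A3 6 passed in each state, where 14.8% of all genes did without LPS and 21.8% with LPS. ERAP1, PSME3, PSMB9 and PSME2 kept their directions and calls, as did PSME4 between the knockdown lines with LPS. PSME1 then passed in all 4 comparisons with shNT (adjusted p = 0.0320, 0.000635, 0.0207 and 0.0165 in the same order, edgeR with the replicate number as a block), as did PSME2 in shNR4A2 without LPS (adjusted p = 0.00294, edgeR with the block). PSMB2, which carries no active site, passed as lower in shNR4A2 (-0.24 without LPS and -0.18 with LPS before the block, adjusted p = 0.0103 and 0.0496 with it in edgeR).

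**Figure D4:**
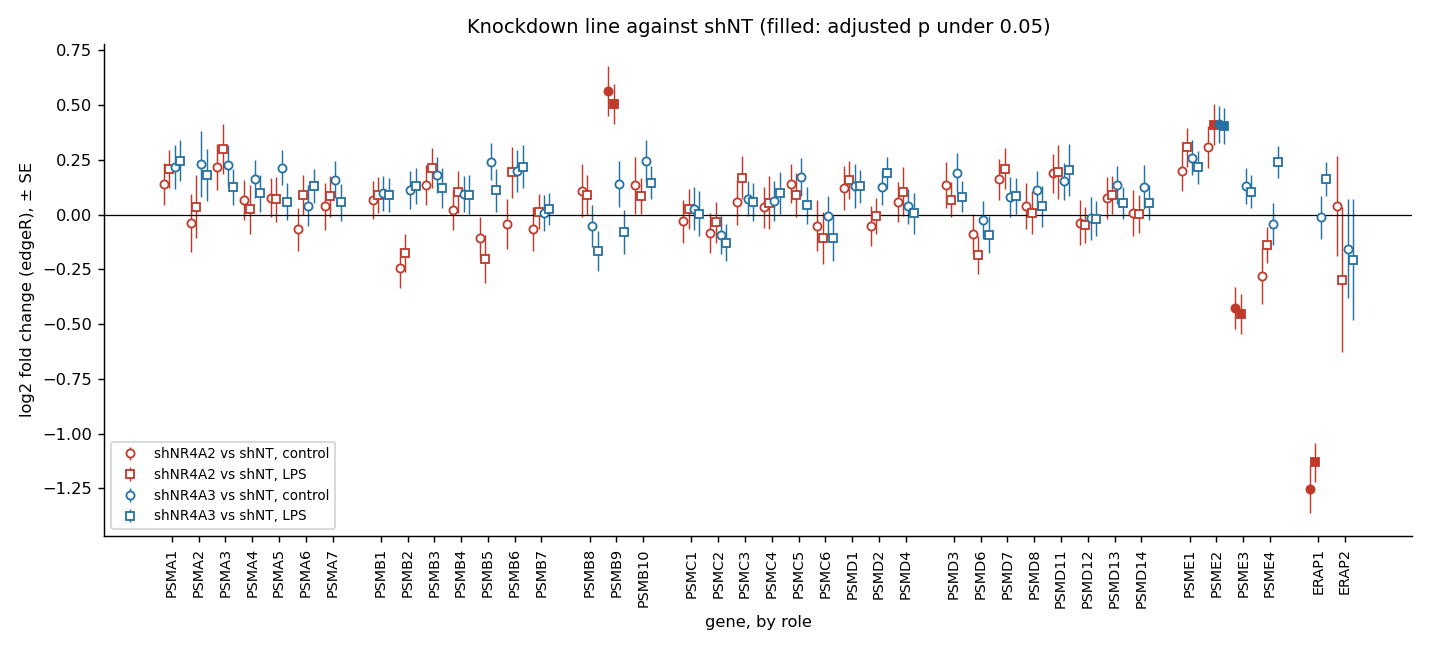
Log2 fold change against shNT (± SE, edgeR) of the 40 genes by role, in shNR4A2 (red) and shNR4A3 (blue), circles without and squares with LPS, filled where the adjusted p was under 0.05. The filled points are ERAP1, PSME3, PSMB9 and PSME2, and the 31 standard subunits lie between -0.24 and 0.30.

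Compared directly, the knockdown lines differed in 2 of the 40 genes without LPS (ERAP1 and PSME3, both lower in shNR4A2, where 3.08% of 15584 genes passed) and in 4 with LPS (ERAP1, PSME3 and PSME4 lower and PSMB9 higher in shNR4A2, where 2.33% of 15539 passed). With the replicate block 5 passed without LPS (11.6% of all genes) and 9 with LPS (23.6%), including PSMB5 and PSMB2 as lower in shNR4A2 in both states. PSMB5, the subunit with chymotrypsin-like activity, was at 41.1, 42.8 and 40.7 RPKM in shNT control libraries, 35.8, 39.9 and 39.4 in shNR4A2 and 49.5, 50.5 and 47.4 in shNR4A3. The shNR4A2 libraries lay below and the shNR4A3 libraries above those of shNT, and the difference between the knockdown lines was -0.35 (SE 0.101, edgeR adjusted p = 0.0921). It passed with the block (0.00971), with all 18 libraries in 1 fit (0.0328) and in DESeq2 (adjusted p = 0.0474).

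Treatment with LPS raised standard subunits in each line, by modest amounts. In shNT cells 17 of the 40 genes passed edgeR's test and all 17 were higher (42.5%, where 11.6% of the 15711 genes tested passed as higher). In shNR4A2 cells 8 passed (where 9.23% of 15772 passed as higher) and in shNR4A3 cells 12 (30.0%, where 13.1% of 15342 did), again all higher. None changed 2-fold, and the largest value was 0.55. The medians of the 40 genes were 0.21, 0.25 and 0.15 on the log2 scale in shNT, shNR4A2 and shNR4A3, beside -0.01, -0.02 and -0.01 over all genes. These directions are relative to the bulk of genes: with library totals alone the median of all genes moved to -0.19, -0.23 and -0.21 and that of the 40 genes to 0.04, 0.03 and -0.05. The calls were then 4 higher and 2 lower in shNT (7.06% and 26.5% of all genes), 1 and 1 in shNR4A2 (6.4% and 22.4%), and 3 and 2 in shNR4A3 (8.58% and 29.3%). Relative to the median of all genes, the median of the 40 stood at 0.23, 0.26 and 0.16 under either scaling. It stood at 0.14, 0.18 and 0.06 in DESeq2 and at 0.15, 0.19 and 0.08 with no filter on low counts. In these last settings all genes were those with any count, a larger set.

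In shNT cells the genes that passed were 5 of 7 alpha subunits, 4 of 7 standard beta subunits, 4 of 9 members of the base, 3 of 8 of the lid and 1 of 4 activators, and none of the 3 inducible subunits or the 2 aminopeptidases. In shNR4A2 cells 2 alpha and 1 standard beta subunits, 4 members of the base, 0 of the lid and 1 activator passed, and in shNR4A3 2 alpha and 2 beta subunits, 4 of the base, 2 of the lid and 2 activators. Of the 31 standard subunits 28 were positive in all 3 lines, the exceptions being PSMB7, PSMC2 and PSMD12. The 7 genes that passed in all 3 lines were PSMA1, PSMA6, PSMB4, PSMC3, PSMC4, PSMD4 and PSME3. Taken line by line, 11.6%, 9.23% and 13.1% of all genes tested passed as higher in shNT, shNR4A2 and shNR4A3. How many of all genes passed, or were positive, in all 3 lines was not counted. Neither count shared between lines can therefore be set against genes at large. Without control library 3 or LPS library 1 or 3 of shNR4A2, PSMA1 was the 1 gene that passed in that line, so the other 6 were then not called in all 3 lines.

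PSMA1, an alpha subunit, had the highest values among the genes that passed in all 3 lines. It was at 20.3, 20.8 and 18.4 RPKM in shNT control libraries and 28.1, 26.8 and 28.0 with LPS, with no overlap. The log2 fold changes were 0.48 in shNT (SE 0.0848, edgeR adjusted p = 0.000794), 0.55 in shNR4A2 and 0.51 in shNR4A3. PSMA1 was also the 1 gene of the 40 that passed as higher in all 3 lines with library totals alone, at 0.31, 0.33 and 0.31. PSMC4, an ATPase of the base, went from 29.01, 27.8 and 26.7 RPKM to 39.3, 34.0 and 39.4 in shNT cells, or 0.44 (SE 0.0902, edgeR adjusted p = 0.00271). PSMD4, a ubiquitin receptor of the base, went from 60.8, 62.8 and 57.0 to 82.8, 71.7 and 87.5 RPKM, or 0.42 (SE 0.0896, edgeR adjusted p = 0.00314). In both genes the second LPS library was the lowest of its group and still lay above every control library. The other genes that passed in every line had smaller values in shNT, with PSMA6 of the alpha ring at 0.29, 0.45 and 0.38, PSMB4 at 0.32, 0.40 and 0.32 and PSMC3 at 0.32, 0.43 and 0.30 in shNT, shNR4A2 and shNR4A3. PSMA2, an alpha subunit, passed in shNT with 0.38 (SE 0.121, edgeR adjusted p = 0.0362). That call was lost in DESeq2 (adjusted p = 0.0646), with no filter, with all libraries in 1 fit (0.0695) and with library totals alone (0.243). With the replicate block PSMA2 passed as higher in all 3 lines, and in shNR4A2 also with all 18 libraries in 1 fit. PSME3 rose with LPS in all 3 lines, by 0.41, 0.38 and 0.38. In shNR4A2 this call was lost without each library except the second with LPS (adjusted p up to 0.173), with library totals alone and with no filter on low counts. The PSMB4 call in shNR4A2 was also lost with no filter and with library totals alone. PSME4 passed in shNR4A3 (0.48, SE 0.0855, edgeR adjusted p = 0.00153), where 0.20 in shNT and 0.34 in shNR4A2 did not. In shNR4A2 it passed with the replicate block (edgeR adjusted p = 0.0348) and with all 18 libraries in 1 fit (0.0171). The interaction of line and LPS in shNR4A3 against shNT did not pass for PSME4 (0.28, SE 0.118, edgeR adjusted p = 0.952).

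**Figure D5:**
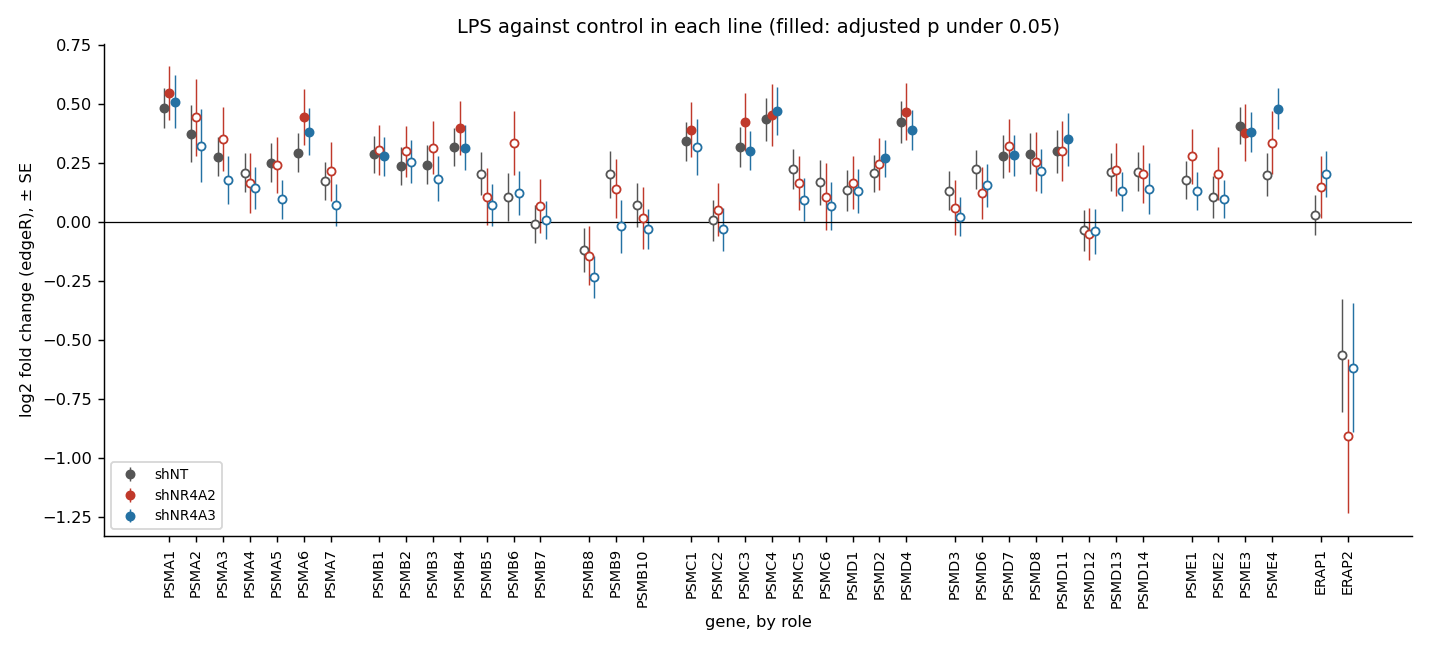
Log2 fold change of LPS against control (± SE, edgeR with TMM scaling) of the 40 genes by role, in shNT (grey), shNR4A2 (red) and shNR4A3 (blue), filled where the adjusted p was under 0.05. All filled points lie above 0, with PSMA1 highest, and no inducible subunit or aminopeptidase is filled in any line.

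The subunits that interferons induce were not among those that passed as higher within a line at 2 hours. PSMB8 was at -0.12, -0.14 and -0.23 in shNT, shNR4A2 and shNR4A3, PSMB9 at 0.20, 0.14 and -0.02, and PSMB10 at 0.07, 0.02 and -0.03. None passed in edgeR, and PSMB8 in shNR4A3 did so as lower with the replicate block (adjusted p = 0.0242). With library totals alone PSMB8 passed as lower in shNT (-0.29, edgeR adjusted p = 0.0284) and in shNR4A3 (-0.43, edgeR adjusted p = 0.00691), where -0.36 in shNR4A2 did not (0.0566). Their standard partners did not pass within a line either, with PSMB5 at 0.21, 0.11 and 0.07, PSMB6 at 0.11, 0.34 and 0.12 and PSMB7 at -0.01, 0.07 and 0.01 in the same order. With all 18 libraries in 1 fit PSMB6 passed as higher in shNR4A2 (edgeR adjusted p = 0.0168). The PSMB8 share of its pair with PSMB5 was 57.7% ± 1.74 (SD, n = 3) without and 52.2% ± 2.06 with LPS in shNT, 61.2% ± 2.56 and 57.2% ± 2.91 in shNR4A2, and 52.7% ± 0.589 and 47.4% ± 2.10 in shNR4A3. PSME1 was at 0.18, 0.28 and 0.13 and PSME2 at 0.11, 0.21 and 0.10, and neither passed within a line. In the fit of all 18 libraries PSME1 passed as higher in shNR4A2 (edgeR adjusted p = 0.0120). ERAP2 stood at -0.56, -0.91 and -0.62 and passed in none (edgeR adjusted p = 0.107, 0.0716 and 0.117), although its LPS and control libraries did not overlap in any line. With library totals alone it passed as lower in all 3 (edgeR adjusted p = 0.0289, 0.0271 and 0.0404). In shNR4A2 it also did so with the replicate block (0.0357), with no filter on low counts and with all 18 libraries in 1 fit (0.0124).

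None of the 40 genes passed edgeR's test of the interaction of LPS and line between a knockdown line and shNT. The counts were 0 of 16674 genes tested for shNR4A2 (0%, with 365 at an unadjusted p under 0.05) and 0 of 16428 for shNR4A3 (0%, with 824), and of the 40 genes 0 and 1 were at an unadjusted p under 0.05. DESeq2 gave 0 of the 40 in both, as did the fit with the replicate block. In shNR4A2 cells LPS gave 16 calls among the 40 with the block (30.1% of all genes passed) in place of 8, and between 1 and 16 on leaving out 1 library, the fewest without control library 3 or LPS library 1 or 3. Over all genes that count ran from 2113 to 3375, beside 3050 with every library. The count was 7 to 14 in shNT, with the fewest without the third LPS library, and 5 to 16 in shNR4A3, likewise without the third LPS library. Over all genes these counts ran from 3033 to 3461 in shNT and from 3136 to 4863 in shNR4A3.

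Genes that assemble or regulate the proteasome were examined as a list of 21. With LPS, 5 rose and 3 fell in shNT, 3 rose and 1 fell in shNR4A2, and 4 rose and 1 fell in shNR4A3, where 11.6%, 9.23% and 13.1% of all genes rose and 13.3%, 10.1% and 15% fell in the same order. NFE2L2, the transcription factor NRF2, led them at 2.52, 2.61 and 2.53 (edgeR adjusted p = 2.64e-11 in shNT), from 19.3, 17.8 and 19.4 RPKM in shNT control libraries to 113, 106 and 105 with LPS. ZFAND5, which binds the particle and stimulates it, was at 0.53, 0.38 and 0.50, and the assembly chaperone POMP at 0.31, 0.38 and 0.37, and both passed in every line. USP14, a deubiquitinase of the cap, passed in shNT at 0.26 (edgeR adjusted p = 0.0407) and in shNR4A3 at 0.45 (0.00661), and at 0.36 in shNR4A2 with the replicate block (0.0114). DDI2, the protease that releases the related factor NFE2L1, fell in all 3 lines (-0.79, -0.97 and -0.80). PSMD5 and AKIRIN2, an assembly chaperone and a factor for nuclear import of proteasomes, fell in shNT by 0.41 and 0.32 on the log2 scale. With the replicate block both also passed as lower in shNR4A2 and shNR4A3, at -0.53 and -0.33 for PSMD5 (adjusted p = 0.0227 and 0.0422 in edgeR) and -0.41 and -0.31 for AKIRIN2 (0.0124 and 0.00989). The block gave 4 higher and 3 lower in shNR4A2 (13.8% and 16.3% of all genes) and 5 and 4 in shNR4A3 (18.6% and 20.8%). With knockdown 0 of the 21 passed in edgeR in any of the 4 comparisons. At an unadjusted p under 0.05 there were 2 and 4 in shNR4A2 and 1 and 3 in shNR4A3, where 3358 of 15800, 3617 of 15590, 3206 of 15322 and 3581 of 15578 genes reached it. With the replicate block 6 passed in each state of shNR4A2 (23.6% and 28.1% of all genes) and 1 and 3 in shNR4A3 (14.8% and 21.8%). DESeq2 gave 0 and 1 in shNR4A2 and 1 and 0 in shNR4A3. Over all genes it called 3.36%, 3.55%, 3.04% and 3.25%. These shares are of every gene with a count, a larger set than edgeR tested after its filter. PSMB11 and PSMA8, subunits restricted to thymus and testis, were too low to test.

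Among 8 other peptidases of antigen processing, LAP3 (0.40, 0.58 and 0.58) and NRDC (0.36, 0.40 and 0.56) rose with LPS in all 3 lines, where 11.6%, 9.23% and 13.1% of all genes rose. NPEPPS, a cytosolic aminopeptidase, was higher in shNR4A3 in both states (0.43 and 0.56) and in shNR4A2 with LPS (0.50, edgeR adjusted p = 0.0155). NRDC was also higher in shNR4A3 with LPS, so 1 and 2 of the 8 passed there without and with LPS (3.91% and 3.99% of all genes were higher). In shNR4A2 0 passed without LPS and 1 with LPS (3.63% and 4.31%). With the replicate block 3 passed in each state of shNR4A2 (23.6% and 28.1% of all genes), 2 higher and 1 lower. In shNR4A3 1 and 3 did (14.8% and 21.8%), all higher. Of 9 genes of peptide transport, class I and interferon signalling, 4 rose with LPS in every line, where 11.6%, 9.23% and 13.1% of all genes rose in shNT, shNR4A2 and shNR4A3. TAP1, which lies beside PSMB9 and pumps peptides into the endoplasmic reticulum, was at 0.43 in shNT and 0.71 in shNR4A3, and TAPBP, which tethers that pump to class I molecules, at 0.41 and 0.65. B2M, the light chain of class I, was at 0.44 and 0.48, and IRF1 at 0.44 and 0.65. IRF2 fell in shNT (-0.40) and shNR4A3 (-0.61), and its -0.40 in shNR4A2 passed with the replicate block (edgeR adjusted p = 0.0865 without and 0.0349 with it). In shNR4A2 TAP2 was higher in both states (0.41 and 0.41, edgeR adjusted p = 0.0332 and 0.0438). IRF1, which activates the inducible subunits, was higher with LPS in both knockdown lines, at 0.37 in shNR4A2 and 0.53 in shNR4A3. With the replicate block 5 of the 9 passed, all higher, in each state of shNR4A2 (12.1% and 15.2% of all genes were higher) and with LPS in shNR4A3 (12.3%). In shNR4A3 without LPS 1 of the 9 was higher with the block (8.09%). TAP1 was at 0.33 and 0.42 in shNR4A2 against shNT and did not pass in either state (edgeR adjusted p = 0.118 and 0.150), but did so in both with the block (0.00348 and 2.17e-05).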

How the data were processed

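Polyadenylated RNA of 18 libraries was sequenced as paired reads. Per the submitters' processing notes the authors trimmed reads with Trimmomatic 0.36, aligned them to GRCh38 with STAR 2.5.2b and counted them with featureCounts of Subread 1.5.2; the annotation release and strand setting are not given in the sources used here. The deposited values are raw counts per gene with merged exon length, and symbols were taken from GENCODE 29 by Ensembl identifier.

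Each comparison was fitted on its own libraries over all genes with edgeR 4.0.16 (R 4.3.3; filterByExpr, TMM factors, quasi-likelihood test, Benjamini-Hochberg adjustment over all genes tested, threshold 0.05), and SE is the log2 fold change over the root of F. The study states independent experiments as replicates. RPKM used TMM factors over all 18 libraries. The alternatives were DESeq2 1.42.0, RLE scaling, library totals alone, no filter on low counts, all libraries in 1 fit, each library left out, and the replicate number as a block. Same-numbered libraries correlated in their deviations from group means by 0.143 to 0.533 in every comparison except LPS in shNT (0.0598 to 0.256). The numbers were taken as pairs in every other comparison. The term for them was in the alternative fits with the block alone, and the main fits left it out. The fits were tested on simulated data with changes of at least 2-fold and no pairing of libraries, which does not bear on smaller changes.

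The genes named are PSMB5 to PSMB10, PSME1 to PSME4, ERAP1 and ERAP2 throughout, up to 5 members and 3 genes of each further list that passed in each direction of a comparison, and NR4A2, NR4A3, TNF, IL6 and CCL20. LYZ, FCGR1A, PSMA4, PSMA7, PSMB2, PSMB3, PSMB4, PSMC1, PSMC2, PSMD7, PSMD12 and the overlapping neighbours were named after their values were seen. So were genes with their values in further comparisons. The members and lists were chosen with earlier results of these data known. Total counts had a median of 19639071 in a library, and the lowest count of a member in any library was 15.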

Additional observations from a re-analysis of the deposited data

Results flagged for a closer look

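In 6 results the knockdown lines differed from each other by a direct test, shNR4A2 against shNR4A3 in edgeR with Benjamini-Hochberg adjustment. ERAP1 was lower in shNR4A2 by -1.24 on the log2 scale without LPS (adjusted p = 0.000168) and -1.29 with LPS (adjusted p = 0.000219), in 3 of 3 libraries against all 3 of shNR4A3 in each state. PSME3 was at -0.56 without LPS (adjusted p = 0.00847) and -0.56 with LPS (adjusted p = 0.0236), also with no overlap of the libraries. With LPS PSME4 was at -0.38 (adjusted p = 0.0433) and PSMB9 at 0.59 (adjusted p = 0.0285), and neither call held on leaving out any 1 of the 6 libraries. PSMB5 without LPS was below every shNT library in all 3 shNR4A2 libraries and above every shNT library in all 3 shNR4A3 libraries, and the difference between the knockdown lines of -0.35 did not pass in edgeR on these 6 libraries (adjusted p = 0.0921), but did so with the replicate block (0.00971), with all 18 libraries in 1 fit (0.0328) and in DESeq2 (0.0474).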

How the results depend on the processing

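The counts below are of the 40 genes past an adjusted p of 0.05. With the replicate block 9 passed in shNR4A2 against shNT without LPS and 13 with LPS, 6 and 6 in shNR4A3 against shNT, 5 and 9 in shNR4A2 against shNR4A3, and 16 for LPS in shNR4A2; in shNT, where the numbers were not taken as pairs, LPS gave 23 in place of 17 (32% of all genes in place of 24.9%). The block moved no other count by over 1.5 times and lost no call. DESeq2 gave 2 in shNR4A3 against shNT without LPS and 4 in shNR4A2 against shNR4A3 without LPS. Over all genes it called 1151 of 37854 and 643 of 38285 (3.04% and 1.68%). These totals hold every gene with a count, where edgeR tested the 15322 and 15584 that passed its filter. The DESeq2 shares are therefore not on the same footing as those of edgeR. All 18 libraries in 1 fit gave 5 between the knockdown lines without LPS (704 of 16935 genes) and 21 for LPS in shNR4A2 (4601 of 16935). With library totals alone LPS gave 6 in shNT (33.5% of all genes), 2 in shNR4A2 (28.8%) and 5 in shNR4A3 (37.9%). On leaving out 1 library the counts ran from 1 to 3 and 1 to 6 in shNR4A2 against shNT (without and with LPS), 1 to 1 and 0 to 2 in shNR4A3 against shNT, 1 to 2 and 1 to 2 between the knockdown lines, 7 to 14, 1 to 16 and 5 to 16 for LPS in shNT, shNR4A2 and shNR4A3, and 0 to 0 for both interactions. Over all genes the counts ran from 517 to 1128 and 342 to 1477 in shNR4A2 against shNT. They ran from 649 to 975 and 383 to 1693 in shNR4A3 against shNT, and 249 to 470 and 94 to 217 between the knockdown lines. A change of sign counted as a reversal only where the value shifted by more than its SE or passed in either fit. Directions reversed with library totals alone for these LPS values: ERAP1 -0.1442 in shNT and -0.0694 in shNR4A2, PSMB10 -0.1003 and -0.1981, PSME2 -0.0663 and -0.0128 and in shNR4A3 -0.1016, PSMB6 -0.0692 in shNT and -0.0769 in shNR4A3, PSMB5 -0.1103 in shNR4A2 and -0.1246 in shNR4A3, PSMB7 -0.1475 and -0.1904, PSMB9 -0.0769 in shNR4A2 and PSME1 -0.0664 in shNR4A3. On leaving out 1 library, PSMB8 in shNR4A2 against shNT without LPS ran from -0.0206 to 0.1913 and PSMB10 from -0.0223 to 0.2152, both lowest without the second shNR4A2 library. The cause of these shifts was not tested beyond the scaling itself, which moved the median of all genes. Of 161 results, RLE scaling left all 161 on their side of the threshold and without such a reversal. DESeq2 left 156, no filter 150, 1 fit of all libraries 148, the block 144 and library totals alone 117 (24 lost and 15 reversed). On leaving out 1 library 833 of 966 values stayed so (128 lost and 2 reversed). Smaller changes of sign between values that did not pass are not in these counts. Low counts limit precision, as for ERAP2 with 15 to 63 in a library.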
